A study of Mus musculus with 15 samples.

Results

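Aquaporins are channels that let water, and in some members small solutes such as glycerol, cross cell membranes. In the mature brain Aqp4 lies in the astrocyte endfeet that wrap blood vessels, where it is held by a complex of dystrophin, alpha-dystrobrevin (Dtna) and syntrophin that is tied through dystroglycan (Dag1) to laminin and agrin in the basement membrane. Aqp1 is the water channel of the choroid plexus, the epithelium that secretes cerebrospinal fluid, Aqp9 carries glycerol and other small solutes as well as water, and Aqp11 is an intracellular member of the family. The genes described are these 6, Aqp1, Aqp4, Aqp9, Aqp11, Dag1 and Dtna, which were chosen by name out of 53337 genes. All 6 were found. In GRCm38 they are Aqp1 (ENSMUSG00000004655, chr6:55336432-55348555), Aqp4 (ENSMUSG00000024411, chr18:15389496-15410982), Aqp9 (ENSMUSG00000032204, chr9:71110659-71168682), Aqp11 (ENSMUSG00000042797, chr7:97724006-97738289), Dag1 (ENSMUSG00000039952, chr9:108204634-108263958) and Dtna (ENSMUSG00000024302, chr18:23415135-23659715). Aqp1 and Dtna are on the plus strand and the others on the minus strand.

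The libraries are stranded mRNA-seq of dorsal forebrain, the precursor of the cortex, from C57BL/6J mouse embryos at embryonic day 18 (E18). Their dams carried a subcutaneous minipump that infused arginine vasopressin (AVP) or saline through gestation, which the study used as a model of preeclampsia, and the labels call the saline arm vehicle. In males there were 4 libraries from AVP and 4 from saline dams, and in females 3 from AVP and 4 from saline dams, each from 1 brain. The brains came from 8 litters, and a figure legend of the study gives the brains of a group and sex as coming from separate litters. The labels do not tie a brain to a litter, so males and females of the same litter cannot be told apart in the fits that hold both sexes. Values were read as TPM, because the deposited data do not name their unit. TPM is the abundance of a transcript for its length, scaled to the same total in every library. The values were summed over the transcripts of a gene, can be compared between genes, and carry no counts, so the read depth behind a value is unknown.

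Several properties of the libraries bear on the 6 genes. Sex-linked transcripts matched the label in 14 of 15 libraries, and the exception was the library labelled saline male 12, so male results are also given without it. The dorsal forebrain markers, among which Neurod6 and Neurod2 were highest, summed to between 962 and 1324 TPM. Markers of astrocytes and radial glia summed to between 2244 and 3664 TPM, most of it Fabp7 and Vim, while Gfap, which marks mature astrocytes, had a mean of 7.94 TPM. Choroid plexus markers ranged from 7.33 to 2312 TPM, and meningeal fibroblast markers from 103 to 395 TPM. In AVP females the sums of several marker lists lay above those of every saline female. They were the meningeal (311 to 395 TPM against 157 to 219) and mural (149 to 157 against 98.7 to 128) lists. The endothelial (202 to 220 against 127 to 197) and microglia and border macrophage (86.2 to 94.9 against 41.9 to 78.0) lists did so too. The sums of the other marker lists overlapped. Among single genes tested in females, 2.78% separated upward in this way. AVP female 11 had the highest red blood cell sum, 13661 TPM, and the lowest median-of-ratios scaling factor of the 15 libraries, 0.882, while AVP female 10 had the highest.

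The study measured Aqp1 and Aqp4 by qPCR too, and its Aqp1 primers are shown because they mark which stretch of the transcript that assay reads. Both lie in exon 4, in the 3′UTR of Aqp1-201, the gene's only annotated transcript (2627 nt, 4 exons), and bound a 122-nt product. In GRCm38 the forward primer is at chr6:55346945-55346965 on the plus strand and the reverse primer pairs with chr6:55347049-55347066.
Aqp1 forward: gggcagtaatatcactgtctt
Aqp1 reverse: gtgggtccctcactttca
For Aqp4 both primers lie in coding exons, and 10 of the 11 transcripts in the GENCODE M21 annotation hold both of them. In E18 dorsal forebrain the study reported no significant change of either gene with AVP.

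The anchors were the abundant members and the water channels were low. Over the 15 libraries Dag1 had a mean of 34.9 TPM and Dtna of 23.1 TPM, and Dag1 was the higher of the pair in 15 of 15 libraries. Aqp1 followed at 6.08 TPM and Aqp11 at 4.58 TPM, with Aqp1 above Aqp11 in 9 of 15 libraries. Aqp4 had a mean of 1.78 TPM (range 0.517 to 2.95) and was below Aqp11 in every library. Its value rests on 1 of its 11 annotated transcripts, whereas the other members have values for all of theirs, so its rank is uncertain. Aqp9 had a mean of 0.721 TPM and reached 1 TPM in 3 libraries, so it did not pass the filter, which asked for 1 TPM in 50% of the libraries compared, and was tested singly. Of the other aquaporins Mip, Aqp2, Aqp3, Aqp5, Aqp6, Aqp7 and Aqp8 all had a mean under 1 TPM, and Aqp12 was listed at 0 in all libraries.

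**Figure D1:**
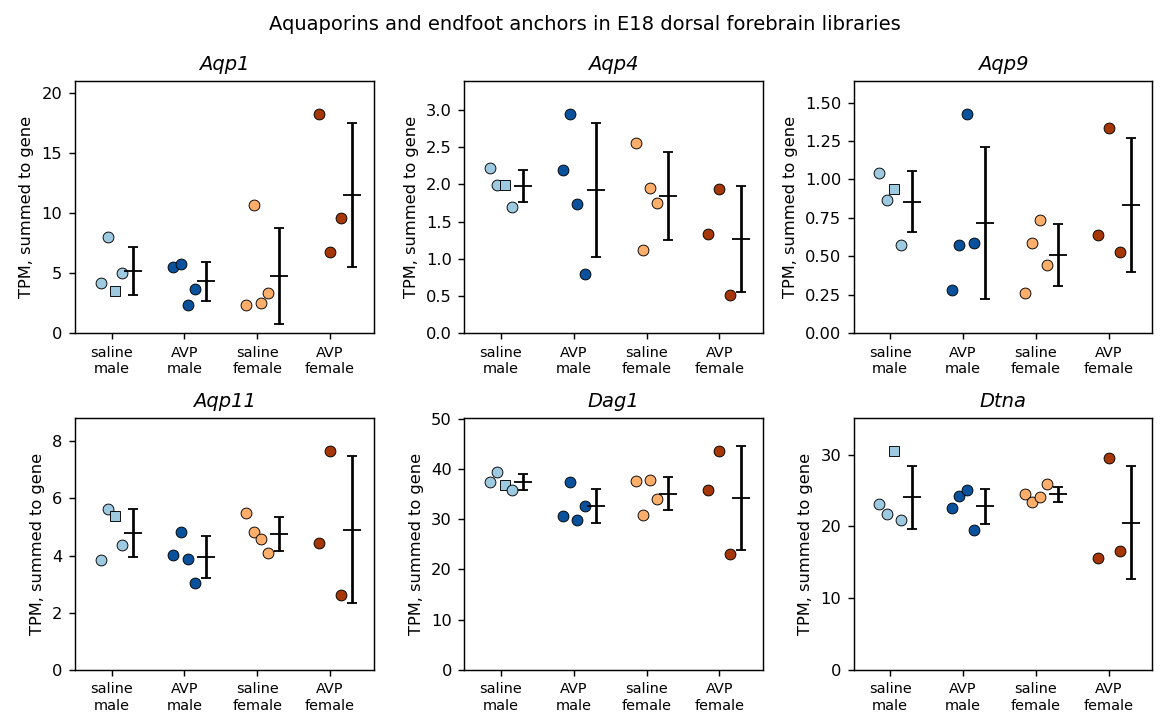
TPM of each member (y axes from 0) in every library by group, with the mean and SD beside the points and the library labelled saline male 12 drawn as a square. Aqp1 in AVP females, 6.71 to 18.3 TPM, stands highest but overlaps the saline females, whose highest library was at 10.7 TPM.

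None of the members passed the threshold in any comparison. Expression of AVP and saline libraries was compared by limma on log2(TPM + 0.5) within males, within females, over both with sex as a covariate, and for the interaction of treatment and sex, with Benjamini-Hochberg adjustment over all genes. Of the 5 members tested, 0 had an adjusted p under 0.05 in males, where 0.00655% of 15271 genes did, and 0 did so in females, where 0% of 15132 genes did, nor with sex as a covariate or in the interaction, each with 0% of 15078 genes. At an unadjusted p under 0.05 there was 1 member lower with AVP in males (Dag1), beside 12.4% of all genes, 1 higher in females (Aqp1), beside 2.34%, and 1 with a positive interaction (Aqp1), beside 2.52%. In the other direction there was no member, beside 1.11% of genes higher in males, 2.17% lower in females and 1.62% with a negative interaction. With sex as a covariate there was none, beside 0.683% of genes higher and 9.69% lower. In no member did all AVP libraries lie on one side of all saline libraries, as they did upward in 0.733% and downward in 6.54% of the genes tested in males, and in 2.78% and 2.77% of those in females. By the exact permutation test on the difference of means, which covered all 6 members, none reached 0.05 in either sex, and the smallest p that these group sizes allow is 0.0286.

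The estimates of the 5 tested members leaned down in males, where all were negative, with a median log2 difference of -0.20 beside -0.10 over all genes tested. In females 4 of 5 were negative, with a median of -0.08 beside -0.05. The male shift of all genes moved with the scaling between libraries: the median over all genes was -0.10 as deposited and 0.0033 after median-of-ratios scaling. A log2 difference of the TPM values in males is therefore to be read beside -0.10. In bulk tissue, fewer cells of a type and less RNA per cell cannot be told apart.

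**Figure D2:**
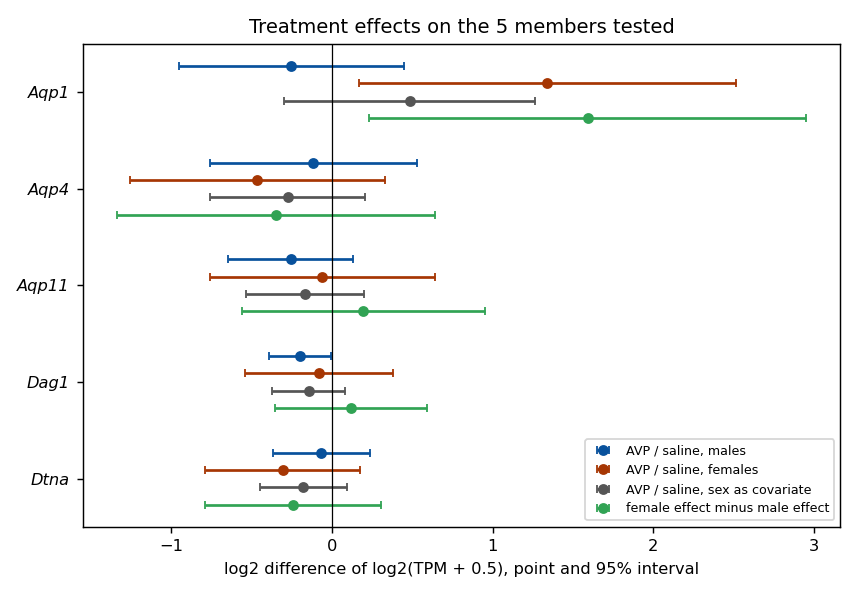
Log2 difference of each tested member between AVP and saline in males, in females and with sex as a covariate, and the female effect minus the male effect, with 95% intervals from limma. The intervals of Aqp1 in females (0.17 to 2.51) and of its interaction (0.23 to 2.95) lie above 0, and that of Dag1 in males (-0.39 to -0.0068) below it, all before adjustment over genes.

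Aqp1, the choroid plexus water channel, showed the largest estimates among the members in females, with sex as a covariate and in the interaction. It was at 18.3, 6.71 and 9.54 TPM in AVP females 3, 10 and 11 and at 2.37, 10.7, 2.47 and 3.35 TPM in saline females 6, 7, 14 and 15. The 3 AVP females lay above 3 of the saline females, and saline female 7 lay among them. The group means were 11.5 ± 6.01 TPM (SD, n = 3) and 4.71 ± 4.0 TPM (SD, n = 4), a log2 difference of 1.34 ± 0.51 (SE; limma, unadjusted p = 0.0295, adjusted p = 0.999; exact permutation p = 0.114). In males Aqp1 was at 5.48, 5.77, 2.31 and 3.64 TPM in AVP males 1, 2, 8 and 9 and at 4.18, 7.99, 3.50 and 5.0 TPM in saline males 4, 5, 12 and 13. These ranges overlapped widely, with a log2 difference of -0.25 ± 0.31 (SE; limma, adjusted p = 0.741) and of -0.40 without saline male 12 (exact permutation p = 0.40). Leaving out other libraries gave from -0.40 without AVP male 2 to -0.017 without AVP male 8, and the choroid plexus markers as a covariate gave -0.11. The female effect exceeded the male effect by 1.59 ± 0.63 (SE) on the log2 scale, which did not pass the threshold (limma interaction, unadjusted p = 0.0247, adjusted p = 0.896), and by 1.74 without saline male 12 (adjusted p = 0.974). The groups ordered by mean were AVP females, saline males (5.17 TPM), saline females and AVP males (4.30 TPM), and each overlapped the next.

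The labels also give each library an S number, which is not the number in its name here. The S numbers form 2 runs, S1 to S8 (libraries named 1 to 7) and S13 to S20 (those named 8 to 15). No label says what the runs stand for. The female difference of Aqp1 was of the same sign in both runs. It was 1.73 in the first run (1 AVP and 2 saline libraries) and 1.33 in the second (2 and 2), and no test was run within a run. With the run as a covariate the female difference was 1.49 (limma, adjusted p = 0.999). The mean level of the choroid plexus markers as a covariate lowered the female difference to 0.54. That covariate was itself uneven between the groups. The choroid plexus sums were 24.6 to 2312 TPM in AVP females and 7.87 to 973 TPM in saline females, with 2 AVP females above every saline female. The mean of the meningeal markers, an alternative chosen after seeing the data, raised the female difference of Aqp1 to 2.52, and both together gave 1.42. The meningeal markers did not overlap between AVP and saline females, so in females that covariate and treatment are not separable. With both covariates the interaction was 0.35 (limma, adjusted p = 0.734).

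Ttr, transthyretin, is the defining transcript of choroid plexus epithelium, and Aqp1 was related to it over the libraries. Ttr was at 615, 4.19, 5.65 and 4.82 TPM in AVP males 1, 2, 8 and 9, and at 559, 680, 6.98 and 1.53 TPM in saline males 4, 5, 12 and 13. In females it was at 2197, 13.9 and 1348 TPM in AVP females 3, 10 and 11, and at 16.6, 922, 24.4 and 3.23 TPM in saline females 6, 7, 14 and 15. The libraries thus fell into 2 clusters, 9 with Ttr between 1.53 and 24.4 TPM and 6 with Ttr between 559 and 2197 TPM, with a gap of 4.49 on the log2 scale between them, so no correlation was pooled over the 15. The 6 libraries with high Ttr were 3 AVP and 3 saline, 3 male and 3 female, and every group had at least 1. By S number they were 5 of the 7 in the first run and 1 of the 8 in the second. No label names choroid plexus in a dissection.

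Aqp1 ranged from 4.18 to 18.3 TPM in the 6 libraries with high Ttr (median 8.77) and from 2.31 to 6.71 TPM in the other 9 (median 3.50), so the clusters overlapped. Among the 6, Aqp1 rose with Ttr (Pearson's r = 0.92, exact permutation p = 0.00833, adjusted over 20 relations p = 0.0556, Spearman's rho = 0.94, exact permutation p = 0.0167, adjusted p = 0.111). Without the 2 libraries farthest from the median of Ttr, AVP females 3 and 11, r was 0.95 over the other 4. Within the first run of S numbers, which held 5 of the 6, r was 0.94. The mean log2 level of the choroid plexus markers, a list that includes Ttr, was also related to Aqp1 over these 6. Its r was 0.93 (exact permutation p = 0.00417, adjusted over 20 relations p = 0.0453), with rho = 0.94 (exact permutation p = 0.0167, adjusted p = 0.111). In this cluster the 3 females had both more Ttr (922 to 2197 TPM) and more Aqp1 (9.54 to 18.3 TPM) than the 3 males (559 to 680 TPM and 4.18 to 7.99 TPM), so sex and Ttr cannot be told apart there. Among the 9 libraries with low Ttr the relation had the opposite sign and did not reach 0.05 (r = -0.35, exact permutation p = 0.352, rho = -0.35, exact permutation p = 0.359, and r = -0.0029 without the 2 farthest libraries). It rested on single libraries and on the measure, with r = -0.71 without AVP female 10 (exact permutation p = 0.0458) and r = 0.51 with the other choroid plexus markers in place of Ttr (exact permutation p = 0.16).

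**Figure D3:**
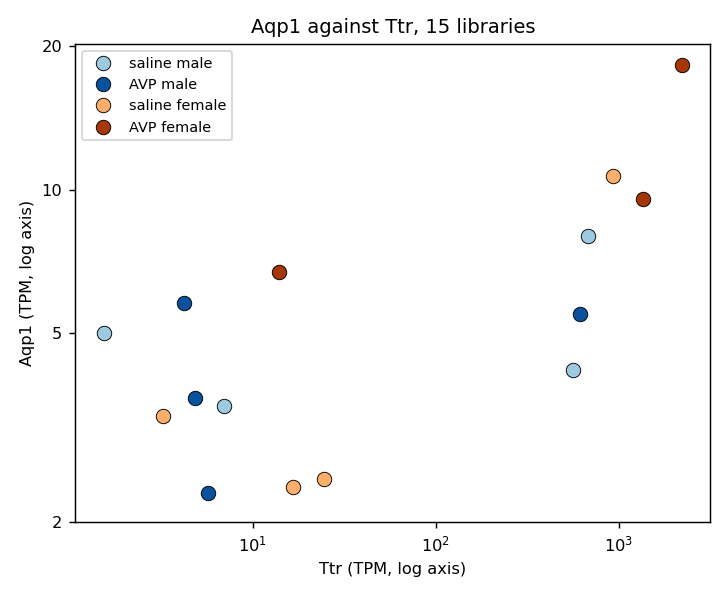
Aqp1 against Ttr (TPM, both axes logarithmic), 1 point per library, coloured by group. The 6 libraries above 559 TPM of Ttr rise together from 4.18 to 18.3 TPM of Aqp1, and the 9 at or below 24.4 TPM of Ttr spread from 2.31 to 6.71 TPM with no such slope.

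Among the libraries with low Ttr, Aqp1 varied with the meningeal fibroblast markers (Col1a1, Col1a2, Dcn, Lum, Foxc1, Slc6a13, Igf2 and Ogn). This relation was noticed in the data and then computed together with those of the other marker lists. The mean log2 level of the meningeal markers had r = 0.85 with Aqp1 over the 9 libraries (exact permutation p = 0.00453, adjusted over 20 relations p = 0.0453), with rho = 0.83 (exact permutation p = 0.00827, adjusted p = 0.111). Without the 2 libraries farthest from the median of the markers r was 0.95 over the other 7, and it was 0.86 over the 7 libraries of the second run. In the cluster with high Ttr the same relation had r = 0.54 (n = 6, exact permutation p = 0.269). AVP female 10, the single AVP female with low Ttr, had the highest Aqp1 of the 9, 6.71 TPM, and a meningeal sum of 325 TPM, against 157 to 219 TPM in the saline females. The red blood cell markers had r = 0.61 with Aqp1 at high Ttr (n = 6, exact permutation p = 0.193). At low Ttr their r was 0.31 (n = 9, exact permutation p = 0.431). In females 5 of 5 red blood cell markers tested were higher at an unadjusted limma p under 0.05, beside 2.34% of genes. The part of meningeal tissue, choroid plexus or blood in the level of Aqp1 was not tested.

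**Figure D4:**
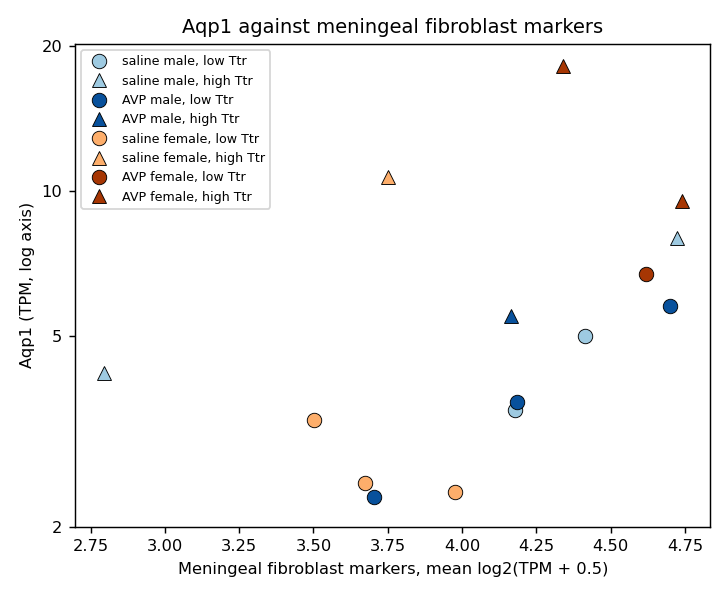
Aqp1 (TPM, logarithmic axis) against the mean log2(TPM + 0.5) of 8 meningeal fibroblast markers, with circles for the 9 libraries with low Ttr and triangles for the 6 with high Ttr. The circles rise from left to right (r = 0.85), and the triangles mostly lie above them.

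Aqp4, the endfoot water channel, was low and did not separate the groups. It was at 2.20, 2.95, 1.74 and 0.792 TPM in AVP males 1, 2, 8 and 9 and at 2.22, 1.99, 2.0 and 1.69 TPM in saline males 4, 5, 12 and 13. The saline males were close together (1.97 ± 0.215 TPM, SD, n = 4) and the AVP males spread on both sides of them (1.92 ± 0.902 TPM, SD, n = 4). The difference on the log2 scale was -0.11 ± 0.29 (SE; limma, adjusted p = 0.882), -0.11 without saline male 12 and 0.16 without AVP male 9. In females Aqp4 was at 1.33, 1.94 and 0.517 TPM in AVP females 3, 10 and 11 and at 2.56, 1.11, 1.95 and 1.74 TPM in the 4 saline females. AVP female 11 was the lowest of all libraries, and the other AVP females lay within the saline range. This gave a log2 difference of -0.46 ± 0.35 (SE; limma, adjusted p = 0.999; exact permutation p = 0.286) and of -0.11 without AVP female 11.

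The isoforms of Aqp4 could not be compared. Its protein is made in a long form and in a shorter form that starts at a later methionine, and only the shorter one on its own builds large square arrays in the membrane. The annotation M21 lists 11 transcripts, of which 7 code for 301 codons and 1, Aqp4-201, for 323. The table holds a value for Aqp4-201 alone (5054 nt, 5 exons), which covers 81.1% of the exonic bases of the gene, so the gene value of Aqp4 is the value of that transcript. The other 10 transcripts were not analysed here. Reads over bases they share with Aqp4-201 (62.9% to 90.5% of each) could only be counted under it.

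Aqp9 and Aqp11 gave no difference between the groups. Aqp9 ranged from 0.277 to 1.43 TPM in AVP males, 0.576 to 1.04 TPM in saline males, 0.530 to 1.34 TPM in AVP females and 0.260 to 0.736 TPM in saline females. Its difference was -0.23 in males (exact permutation p = 0.457, and 0.571 without saline male 12) and 0.38 in females (exact permutation p = 0.257). At this level its value was split over several of the 10 transcripts listed, of which Aqp9-201 held 33.1% on average. Aqp11 ranged from 3.03 to 4.82 TPM in AVP males, 3.83 to 5.61 TPM in saline males, 2.61 to 7.67 TPM in AVP females and 4.08 to 5.50 TPM in saline females. The AVP females held both its lowest library (AVP female 11) and its highest (AVP female 10), which also had the lowest and the highest scaling factor of all libraries. The log2 difference was -0.26 ± 0.17 (SE) in males and -0.06 ± 0.31 (SE) in females (limma, adjusted p = 0.520 and 0.999), and the female value was 0.28 without AVP female 11. Of its 5 transcripts, Aqp11-205 held 57.5% of the gene's TPM on average and Aqp11-201 held 40.1%.

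Dag1, dystroglycan, was the most even member in saline males and lower on average in AVP males. It was at 30.7, 37.4, 29.8 and 32.6 TPM in AVP males 1, 2, 8 and 9 and at 37.4, 39.5, 36.8 and 35.8 TPM in saline males 4, 5, 12 and 13. In AVP males 1, 8 and 9 it lay below every saline male, and AVP male 2 lay among them. In limma the log2 difference was -0.20 ± 0.08 (SE; limma, unadjusted p = 0.0439, adjusted p = 0.356; exact permutation p = 0.0857), and -0.21 without saline male 12 (exact permutation p = 0.0857). It was -0.18 within the first run of S numbers and -0.22 within the second, with 2 against 2 libraries in each. After median-of-ratios scaling it was -0.09 (adjusted p = 0.697), and without AVP male 2 it was -0.26 (exact permutation p = 0.0286, the smallest possible; limma, adjusted p = 0.422). In females Dag1 was at 35.8, 43.7 and 23.1 TPM in the 3 AVP libraries and at 37.6, 30.8, 37.8 and 34.1 TPM in the 4 saline libraries. The AVP females thus held both the highest value (AVP female 10) and the lowest (AVP female 11) of the 15 libraries, again with the highest and the lowest scaling factor, and the difference of -0.08 ± 0.20 (SE; limma, adjusted p = 0.999) was smaller than their spread.

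Dtna, alpha-dystrobrevin, also spread most in AVP females. It was at 15.6, 29.6 and 16.5 TPM in AVP females 3, 10 and 11 and at 24.5, 23.4, 24.1 and 25.9 TPM in saline females 6, 7, 14 and 15. The saline females had an SD of only 1.03 TPM (n = 4), with 2 AVP females below all of them and 1 above. The log2 difference was -0.31 ± 0.21 (SE; limma, adjusted p = 0.999; exact permutation p = 0.314), with -0.14 without AVP female 3, -0.18 without AVP female 11 and -0.59 without AVP female 10. With the choroid plexus markers as a covariate it was -0.05. In males Dtna was at 22.5, 24.2, 25.0 and 19.6 TPM in the AVP libraries and at 23.1, 21.7, 30.6 and 20.9 TPM in the saline libraries, saline male 12 being the highest of all libraries. Here the log2 difference was -0.06 ± 0.13 (SE; limma, adjusted p = 0.856), 0.05 without saline male 12 and 0.05 after median-of-ratios scaling.

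Below the gene level, 1 member transcript separated the male groups. Dtna-209, a transcript of 863 nt in 2 exons, was at 4.70, 4.48, 7.67 and 5.03 TPM in AVP males and at 2.71, 2.38, 4.47 and 3.32 TPM in saline males. The groups did not overlap, though AVP male 2 and saline male 12 were nearly equal. Such a separation upward was seen in 1 of the 14 member transcripts tested and in 0.767% of the 39364 transcripts tested in males. The log2 difference was 0.69 ± 0.24 (SE; limma, unadjusted p = 0.0195, adjusted p = 0.375) and 0.83 without saline male 12 (adjusted p = 0.651). In females Dtna-209 was listed at 0 in AVP female 3 and was at 4.83 and 3.53 TPM in AVP females 10 and 11, against 2.31 to 6.72 TPM in saline females. The female log2 difference was -1.27 ± 0.80 (SE; limma, adjusted p = 1.0), and -0.20 without AVP female 3. The longest transcript of Dtna, Dtna-202 (6295 nt, 21 exons), held 38.4% of the gene's TPM on average and differed by -0.28 ± 0.13 (SE) in males and -0.29 ± 0.26 (SE) in females, neither past the threshold (limma, adjusted p = 0.418 and 1.0). Dag1-204, the longest transcript of Dag1, held 83.0% of that gene on average and from 71.7% to 96.0% in single libraries, and it differed by -0.18 ± 0.08 (SE) in males (limma, adjusted p = 0.419). In all, 0 member transcripts passed the threshold in males (0.00762% of transcripts did), in females (0% of 37806) with sex as a covariate or in the interaction (0.00264% of 37865 in each). At an unadjusted p under 0.05 there was 1 higher in males (Dtna-209, beside 1.39% of transcripts), 1 higher in females (Aqp1-201, beside 1.2%), and 2 lower with sex as a covariate (Dag1-204 and Dtna-202, beside 7.06%). For the interaction there was 1 in each direction, Aqp1-201 (beside 2.56% positive) and Dtna-209 (beside 1.6% negative).

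**Figure D5:**
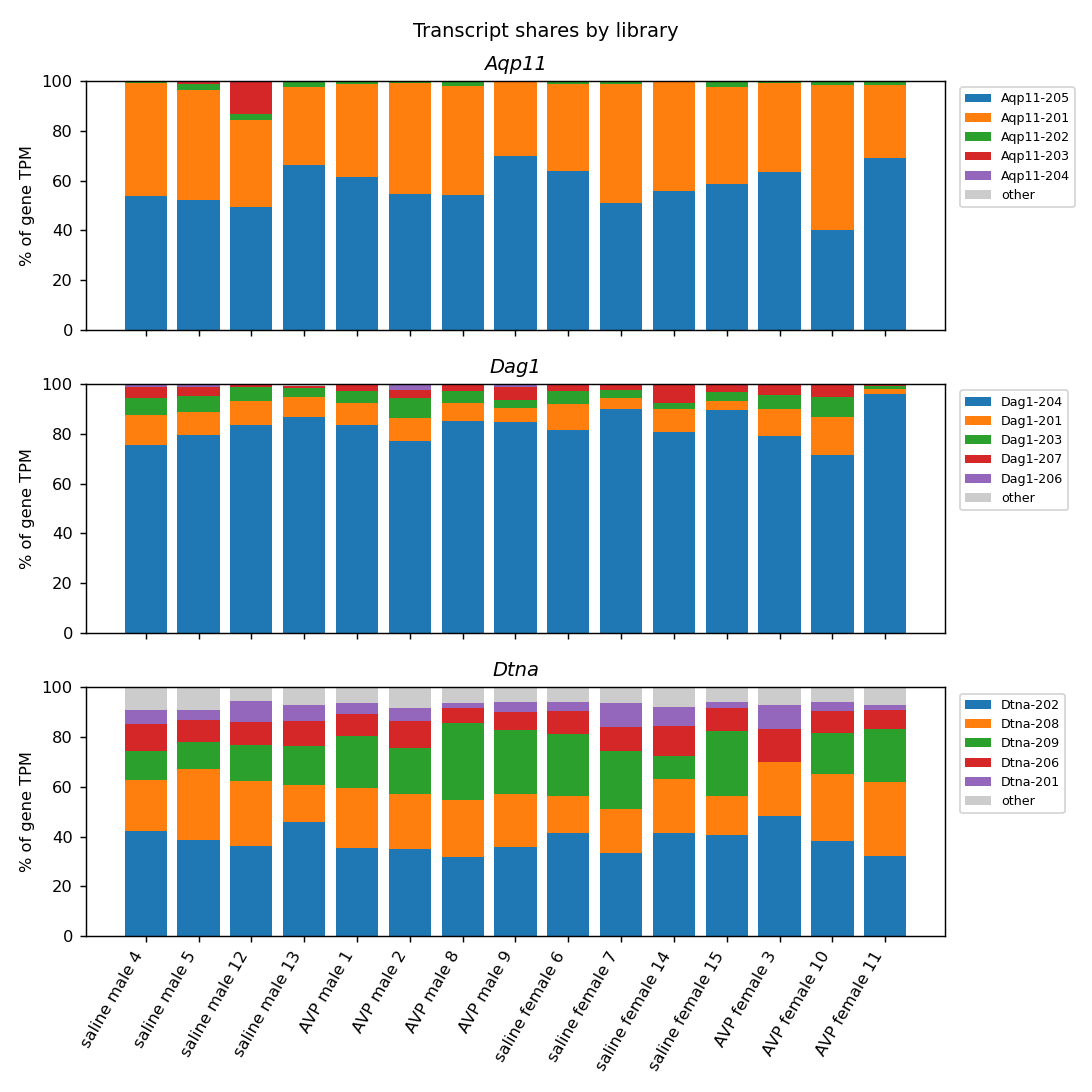
Share of each gene's TPM (%, stacked to 100) held by its 5 leading transcripts in every library, for Aqp11, Dag1 and Dtna. Dag1-204 holds 71.7% to 96.0% of Dag1 and is highest in AVP female 11, while Dtna is divided between several transcripts, with Dtna-209 absent in AVP female 3.

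The genes around these members were read from pathway lists, and 0 of them had an adjusted p under 0.05 in any of the 4 comparisons. In the dystrophin-associated complex, whose most abundant members were Dag1 and Sgce (epsilon-sarcoglycan, 30.3 TPM), 14 of 18 genes were tested. The 14 include the members Dag1 and Dtna. In males 4 of these 14 were lower at an unadjusted p under 0.05 and 0 were higher, beside 12.4% and 1.11% of all genes. The 4 were Sgcb, Dtnb, Sntb2 and Dag1, the last of which is the member already counted above. The median log2 difference was -0.07 beside -0.10 over all genes. The smallest p belonged to Sgcb (beta-sarcoglycan), at 12.5, 14.2, 14.7 and 13.9 TPM in AVP males and 16.4, 17.9, 18.3 and 17.2 TPM in saline males. All AVP males lay below all saline males, as in 6.54% of the genes tested in males, and the log2 difference was -0.33 ± 0.08 (SE; limma, unadjusted p = 0.00384, adjusted p = 0.304), and -0.30 without saline male 12. In females 0 of the 14 reached an unadjusted p under 0.05, beside 2.34% of all genes higher and 2.17% lower. The smallest interaction p was that of Sntb2 (beta-2-syntrophin), 0.63 ± 0.28 (SE; limma, adjusted p = 0.896).

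Dystroglycan binds its ligands through sugar chains, and both sides were measured. Of the 11 enzymes tested that build these chains, in which Pomgnt1 (50.7 TPM) was highest, 3 were lower in males at an unadjusted p under 0.05, beside the same 12.4%. The smallest p belonged to Pomt1, which starts the chain, at 17.3, 19.4, 27.6 and 29.9 TPM in AVP males and 29.8 to 42.3 TPM in saline males, a log2 difference of -0.59 ± 0.18 (SE; limma, unadjusted p = 0.0108, adjusted p = 0.304), and -0.50 without saline male 12. In females 0 of the 11 reached that level, beside 2.34% of all genes higher and 2.17% lower. Among 11 ligands, agrin (Agrn, 155 TPM) and Nrxn2 (130 TPM) were highest. In males 0 of the 11 ligands reached an unadjusted p under 0.05, beside 12.4% of all genes lower and 1.11% higher. In females 2 did, both higher, beside 2.34% of all genes higher. Lama1, the laminin alpha 1 chain of the meningeal basement membrane, had the smallest p, at 3.95, 3.10 and 3.90 TPM in AVP females and 1.52 to 2.63 TPM in saline females (log2 difference 0.58 ± 0.22, SE; limma, unadjusted p = 0.0310, adjusted p = 0.999). With the choroid plexus and meningeal markers as covariates, its difference was -0.22, but in females the meningeal markers are not separable from treatment.

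Of the endfoot channels and transporters, Slc1a3 (67.9 TPM), a glutamate transporter of astrocytes and radial glia, was the most abundant, and 11 of 12 were tested. In males 1 was lower at an unadjusted p under 0.05, beside 12.4% of all genes: Clcn2, a chloride channel, at 14.1 to 28.0 TPM in AVP males and 24.5 to 32.7 TPM in saline males (-0.57 ± 0.20, SE; limma, unadjusted p = 0.0211, adjusted p = 0.318), and -0.51 without saline male 12. In females 2 were higher, beside 2.34% of all genes, led by Gja1 (connexin 43), which was at 47.6, 67.8 and 57.3 TPM in AVP females and 30.6 to 38.4 TPM in saline females. The AVP females all lay above the saline females, as in 2.78% of the genes tested in females. Its log2 difference was 0.75 ± 0.14 (SE; limma, unadjusted p = 0.000557, adjusted p = 0.998), and from 0.12, with the meningeal markers as a covariate, to 0.87 under the alternatives. The meningeal marker sums did not overlap between AVP and saline females either, so that covariate and treatment are not separable there, and the part of meningeal tissue in the level of Gja1 was not tested. With sex as a covariate 3 were lower, beside 9.69% of all genes, led by Hepacam, a cell adhesion molecule of glia (-0.45 ± 0.14, SE; limma, unadjusted p = 0.00572, adjusted p = 0.462).

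The genes whose levels followed each member most closely are given as a description, by Pearson's r of log2(TPM + 0.5) over the 15 libraries among genes with a mean of at least 1 TPM. These values share the total of each library, and the libraries include both Ttr clusters. For Aqp1 they were 1500015O10Rik (r = 0.90), Col8a2 (0.89), Car14 (0.88), Wfikkn2 (0.88) and Dnase2a (0.87). Aqp4 was followed by Baalc (0.94), Ccdc85a, Slc24a3, Paqr9 and Doc2b (0.92), and Aqp11 by Tnfrsf19 (0.93), Zbtb4, Slitrk3, Fblim1 and Notum (0.90). For Aqp9 they were Arl14ep (0.88), A130010J15Rik, Fubp1, Cul5 and Rbm48 (0.84). For Dag1 they were Slc35e1 (0.98), Snrk, Extl3, Wdr82 and Rptor (0.94), and for Dtna Zcchc18 (0.90), Rexo2, Fam213a, Calr and Gpr162 (0.87). Between members, the closest pair was Dag1 with Aqp11 (r = 0.81), followed by Dag1 with Aqp4 (0.70), whereas Aqp1 had r = -0.58 with Dtna and -0.39 with Aqp4. The median r over all genes was 0.33 for Dag1, 0.29 for Aqp11 and Dtna, 0.22 for Aqp9, 0.13 for Aqp4 and -0.12 for Aqp1.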

How the data were processed

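Reads were trimmed by the authors with Trim Galore 0.4.1, checked with FastQC 0.5.2 and quantified with kallisto 0.43.1 against GENCODE M16 transcripts (GRCm38). The deposited values per transcript carry no named unit and were read as TPM, from their column totals and the kallisto processing. TPM are normalized to transcript length and library total. TPM hold no counts, so no count model was used, and depth per library is unknown. TPM were summed to 53337 genes with GENCODE M21, and 404 transcripts without a gene were left out. The filter kept a gene that reached 1 TPM in 50% or more of the libraries of a comparison. On the log2(TPM + 0.5) scale the test was limma 3.58.1 (R 4.3.3) fitting variance against mean level, with treatment as the only term within each sex, two-sided, with an adjusted p threshold of 0.05. The fit was tested on simulated data with known changes and independent noise in each gene. Differences in tissue make-up that move many genes together were not simulated. Differences of log2(TPM + 0.5) understate changes of low genes. Single members had an exact two-sided permutation test, and correlations exact permutation over library order.

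Alternatives covered scaling, pseudocount, filter, variance trend, run of S numbers, marker covariates, a joint fit, and fits without each library in turn. The members and lists were chosen with earlier results of these data known. Named genes were the members, the genes with the smallest p or the 2 highest means in each pathway list, and the 5 closest genes per member. Some genes that this rule names are not reported here. Of 13 O-mannosylation enzymes 12 were in the table. The authors left out 1 AVP female as an outlier, which is not analysed here. Sequences came from the study's primer list and the GENCODE transcripts.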

Additional observations from a re-analysis of the deposited data

Results flagged for a closer look

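Ttr in AVP male 1 was at 615 TPM, while the other 3 AVP males were between 4.19 and 5.65 TPM. On the log2(TPM + 0.5) scale the gap to the nearest of them was 0.945 of the group's range, above Dixon's 95% critical share of 0.829. On that scale it was the 1 case among 21 groups of 4 libraries examined, none of the others being above the critical share, and chance gives about 1 in 20. On the TPM scale, examined after seeing the data, there were 3 cases, this one and Aqp1 (10.7 TPM, share 0.882) and Ttr (922 TPM, share 0.977) in saline female 7. Aqp1 in AVP male 1 was 5.48 TPM, within the 2.31 to 5.77 TPM of its group. The groups of 3 AVP females were not examined.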

How the results depend on the processing

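Of 458 alternative log2 differences of the members, 438 kept their direction, 20 reversed and none passed the threshold (limma, smallest adjusted p = 0.149). Each fit without saline male 12 was also counted under another setting, so these counts hold repeats, among the reversals that of Dtna in males. In males, quantile normalization gave 0.041 for Aqp4 and 0.073 for Dtna, and median-of-ratios scaling gave 0.046 for Dtna. Without saline male 12 Dtna was 0.054. With the choroid plexus markers as a covariate the female difference was 0.15 for Aqp11 and 0.094 for Dag1, with the meningeal markers 0.21 for Dag1, and with both 0.15 for Aqp4, 0.15 for Aqp11, 0.47 for Dag1 and 0.037 for the interaction of Dtna. The covariates with meningeal markers were chosen after seeing the data, and in females they are not separable from treatment. With both, Lama1 was -0.22 in females and -0.018 with sex as a covariate, where meningeal markers alone gave -0.00301.

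Leaving out 1 library at a time gave -0.31 to 0.16 for Aqp4 in males (the same for Aqp4-201), -0.13 to 0.054 for Dtna in males, -0.41 to 0.28 for Aqp11 and -0.28 to 0.17 for Dag1 in females. The interactions ranged from -0.63 to 0.0026 for Aqp4 (also Aqp4-201), -0.16 to 0.54 for Aqp11 and -0.080 to 0.37 for Dag1, and Dtna-209 with sex as a covariate from -0.37 to 0.33. The exact permutation test gave 0 to 1 members under 0.05 in males, the 1 being Dag1 without AVP male 2. The relation of Aqp1 to Ttr among libraries with low Ttr ranged from r = -0.71 (without AVP female 10, exact permutation p = 0.0458) to r = -0.18, and with the other choroid plexus markers in place of Ttr it was 0.51. The cause was not tested for any of these.

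Reads behind each TPM value are unknown, so the precision at the level of Aqp4 and Aqp9 rests on the spread between libraries alone. With 3 or 4 libraries a group and brains not tied to litters in the labels, p-values measure the spread between these libraries. Shares of Aqp4 isoforms under other settings were not run, because 1 transcript is listed. No paired analysis was possible because the groups share no library numbers.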
